A study of Mus musculus with 12 samples.

Results

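The tissue inhibitors of metalloproteinases Timp1 to Timp4 were followed together with matrix proteases and their cell-surface activators in mouse muscle that expressed Dux. The set was Timp1, Timp2, Timp3, Timp4, Mmp2, Mmp14, Adamts1, Adamts4, Adamts5 and Plaur. Its members were the rows of the count table that carry these symbols, and all 10 of 10 were found among the 12752 genes of the table. Poly-A RNA-seq was run on the tibialis anterior, a muscle of the shin, from male C57BL/6 mice. The muscle had been injected at 8 weeks of age with AAV (adeno-associated virus) vectors.

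The 4 groups of 3 libraries were the empty vector on normal chow (EV), the empty vector on doxycycline chow (EV_DOX), the Dux vector on normal chow (DUX) and the Dux vector on doxycycline chow (DUX_DOX). Every muscle, controls included, received AAV:TET beside AAV:MCS, the empty vector, or AAV:Dux, and the Dux vector went into the limb opposite the control. The doxycycline chow held 600 mg/kg and began 7 days after injection, for 2 or 7 days. The labels give no duration for single libraries, no promoter of the vectors and no count of muscle fibres reached. They also do not say that the libraries of a group came from separate animals, so p-values measure the spread between libraries, which may be technical. Library totals ran from 11880593 to 13811999 counts, and the 12 muscle fibre markers, none at 0 counts, summed to 148370.0 to 197015 CPM (counts scaled to TMM-adjusted library totals) in every library. Members ranged from 6 counts (Adamts4 in EV_DOX 3) to 2407 counts (Timp2 in EV 3), so the values of Timp1, Adamts4 and Plaur outside DUX_DOX rest on few reads.

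TIMPs are secreted proteins that bind the zinc in the active site of metalloproteinases and block it. Mmp14 is a membrane-anchored collagenase, and it activates the gelatinase Mmp2 on the cell surface in a complex that contains Timp2. Timp3 stays bound to the matrix and is the TIMP that also inhibits the aggrecanases of the ADAMTS family. Adamts1, Adamts4 and Adamts5 cut versican and related proteoglycans, and Plaur is the receptor that holds the plasminogen activator urokinase at the cell surface. Fibroblasts, macrophages and muscle cells make these proteins when the matrix of injured muscle is remodelled.

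The sequences upstream of 3 of the 4 genes that rose in DUX_DOX are shown, so that the promoters of genes that rose together can be set side by side. RefSeq promoters on GRCm38.p6 were matched for 7 of the 10 members, and Mmp2, Adamts4 and Adamts5 were not matched. Each line gives the 250 bases before the annotated start, 5′ to 3′ on the strand of the gene. Capitals mark the letters TGANTCA (the AP-1 consensus), TTCNNNGAA (a STAT site) or TATAAA (the TATA box), searched on both strands.
Timp1: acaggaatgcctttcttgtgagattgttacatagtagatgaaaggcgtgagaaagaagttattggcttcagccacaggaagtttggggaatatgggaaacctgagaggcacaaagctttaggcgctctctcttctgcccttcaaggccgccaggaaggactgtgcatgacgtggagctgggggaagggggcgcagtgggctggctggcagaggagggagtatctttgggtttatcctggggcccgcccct
Adamts1: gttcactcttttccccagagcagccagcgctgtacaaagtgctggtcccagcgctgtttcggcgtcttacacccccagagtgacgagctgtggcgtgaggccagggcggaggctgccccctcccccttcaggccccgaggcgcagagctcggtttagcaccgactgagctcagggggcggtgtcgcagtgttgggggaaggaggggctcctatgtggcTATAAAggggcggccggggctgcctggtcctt
Plaur: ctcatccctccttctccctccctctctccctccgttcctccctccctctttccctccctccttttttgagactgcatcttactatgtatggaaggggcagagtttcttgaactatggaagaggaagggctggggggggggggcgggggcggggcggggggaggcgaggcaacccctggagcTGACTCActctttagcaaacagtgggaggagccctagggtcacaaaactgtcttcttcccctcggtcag

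These windows are chrX:20869916-20870165 on the plus strand for Timp1, chr16:85803114-85803363 on the minus strand for Adamts1 and chr7:24462233-24462482 on the plus strand for Plaur. Plaur held 1 AP-1 match, the same on both strands, at -69 to -63 counted from the start. Adamts1 held a TATA match at -32 to -27, and the Timp1 window held none of the 3 sets of letters. The windows of Timp2, Timp3, Timp4 and Mmp14, which are not printed, held none of them either. Over all 32851 promoter windows of this length, 6.7% held TGANTCA, 7.0% held TTCNNNGAA and 12.4% held TATAAA. A match is a description of the letters and was not tested as a site.

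The first comparison asked what induced Dux did to these genes in muscle on doxycycline chow, DUX_DOX against EV_DOX. Of the 10 members 4 rose and 0 fell, and these were Timp1, Adamts1, Adamts4 and Plaur. Over all 12751 genes tested 14.9% were called higher and 10.3% lower, 25.3% in all, by edgeR's quasi-likelihood test at an adjusted p below 0.05. The median log2 fold change of the 10 members was 0.10, and that of all genes -0.0053. The same 4 genes, named above, lay without overlap above EV_DOX in all 3 libraries, and Timp3 lay without overlap below it. Such separation was found upwards in 21.4% and downwards in 17.3% of all genes.

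**Figure D1:**
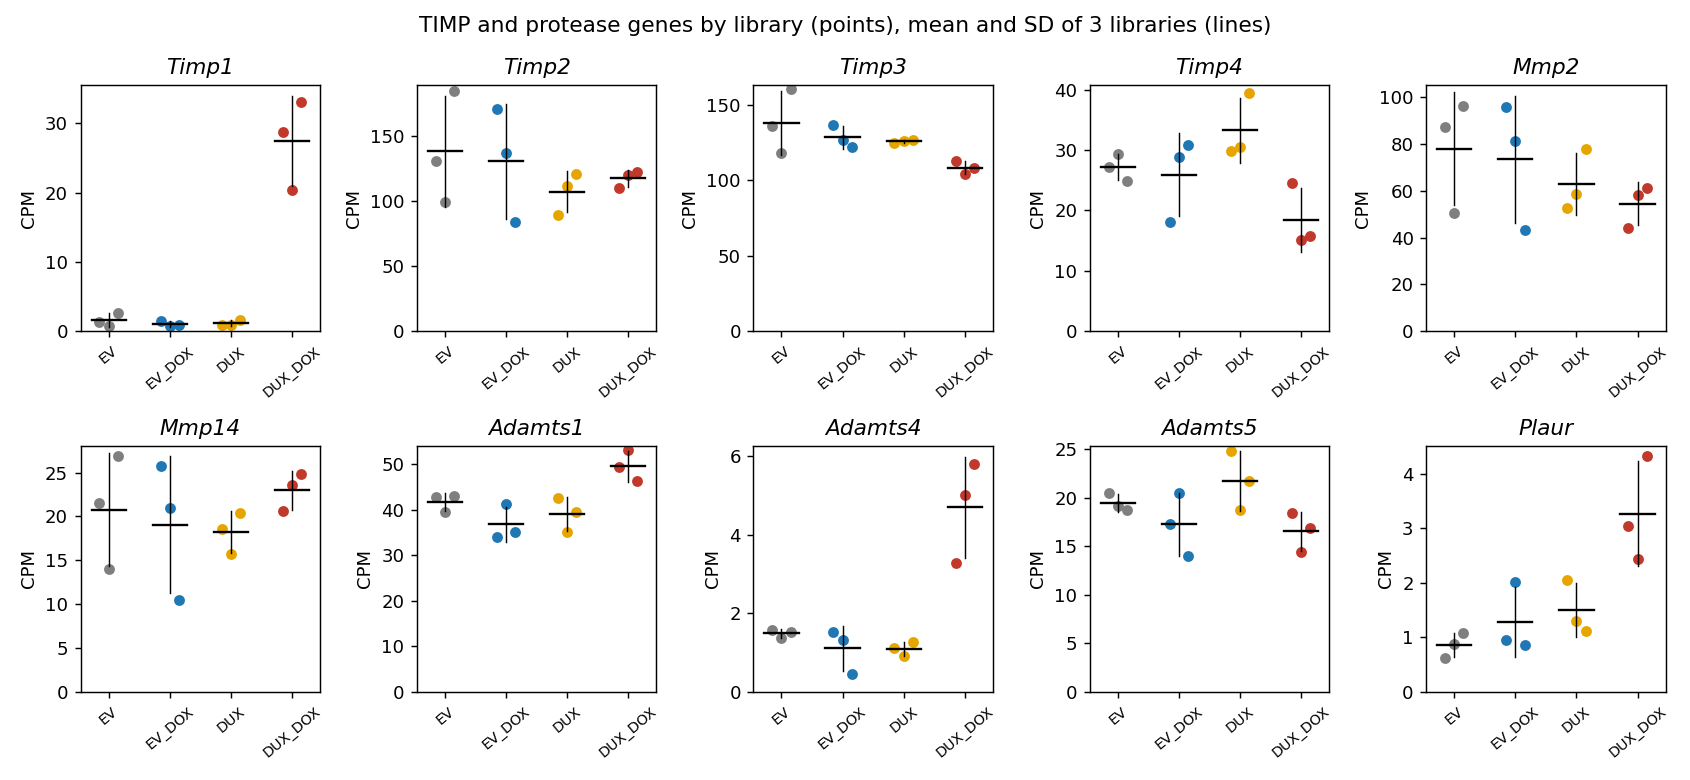
Each panel plots 1 gene, with CPM on a linear axis from 0 and the 4 groups side by side; points are libraries, horizontal lines the mean and vertical lines the SD of 3 libraries. Timp1, Adamts1, Adamts4 and Plaur stood higher in all 3 DUX_DOX libraries than in the other 9, whereas Timp2, Mmp2 and Mmp14 spread widely within EV and EV_DOX. The share of all genes that stand above the other 9 libraries in this way was not counted.

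Among the inhibitors, Timp1 showed the highest fold of the 10 genes. Timp1 (ENSMUSG00000001131, chromosome X, 20870166 to 20874735 in GRCm38) had 28.7, 20.3 and 33.1 CPM in DUX_DOX 1 to 3. It had 1.53, 0.775 and 0.861 CPM in EV_DOX, 1.33, 0.721 and 2.69 CPM in EV, and 0.949, 0.923 and 1.64 CPM in DUX. All 3 induced libraries were thus high, the other 9 libraries were low, and the ranges did not meet. In counts, 1089 reads over the DUX_DOX libraries stood against 42 in EV_DOX, 61 in EV and 46 in DUX. Timp1 rose by 4.67 on the log2 scale (SE 0.34, adjusted p = 2.95e-07) against EV_DOX, a 25.5-fold rise with a 95% interval of the log2 value from 3.94 to 5.40. It held rank 66 of the 12751 genes by p. The means in EV (1.58 CPM, SD 1.00, n = 3), DUX (1.17, SD 0.409) and EV_DOX (1.06, SD 0.415) overlapped within their spread.

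None of the other inhibitors was called in this comparison. Timp2 (chromosome 11, 118301069 to 118355740), the secreted TIMP that takes part in Mmp2 activation, had 110.5 to 123 CPM in DUX_DOX and 83.8 to 171 CPM in EV_DOX. Its log2 fold change was -0.15 (95% interval -0.64 to 0.34, adjusted p = 0.668). Timp3 (chromosome 10, 86300372 to 86349506) had 113, 104 and 108 CPM in DUX_DOX, against 137, 127 and 122 in EV_DOX. The 3 induced libraries were the lowest of the 12, below EV 2 with 118 CPM. The difference of -0.24 (SE 0.10, adjusted p = 0.0804) did not pass the test over all genes, although it passed without EV 2 (adjusted p = 0.0398) or without EV 3 (0.0414), with adjusted p between 0.0398 and 0.189 in the 20 alternatives.

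Timp4 (chromosome 6, 115241892 to 115252205), the TIMP known from heart, muscle and fat, was the 1 member called lower in any comparison of the main edgeR fit. It had 24.5, 15.02 and 15.8 CPM in DUX_DOX and 29.8, 30.5 and 39.4 CPM in DUX. In EV_DOX it had 18.03, 28.8 and 30.8 CPM, and in EV 27.2, 29.3 and 24.9 CPM. DUX_DOX lay below DUX without overlap, but EV_DOX 1 lay within the DUX_DOX range. Timp4 fell by 0.85 (SE 0.20, adjusted p = 0.00658) against DUX, and stood at -0.49 (SE 0.21, adjusted p = 0.0982) against EV_DOX. The second value passed without EV_DOX 1 (-0.69, adjusted p = 0.0125) and without DUX_DOX 1 (-0.75, adjusted p = 0.0177), in a range from 0.0125 to 0.297. Adipocyte markers, like Timp4, were lower in DUX_DOX than in DUX as groups. The 6 measured of 8 summed to 1042 to 1866 CPM in DUX_DOX and, without overlap, to 2146 to 2409 CPM in DUX. Against DUX 4 of the 6 fell (Adipoq, Cfd, Cidec and Fabp4) while 0 rose. Among all genes 13.1% were called lower and 16.5% higher in that comparison. In EV_DOX the sum was 1561 to 3116 CPM and in EV 1805 to 3654 CPM, and against EV_DOX 0 of 6 fell and 0 rose. Within groups the sum did not follow Timp4 library by library. DUX 3 had the highest Timp4 and the lowest sum of its group. EV 3 and EV_DOX 1 had the lowest Timp4 and the highest sum of theirs, while DUX_DOX 2 was lowest of its group in both. None of the 6 was at 0 counts in any library, and their part in the Timp4 values was not tested.

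Per length of transcript, Timp1 changed its place within the family. Levels were compared between genes as CPM per kilobase of annotated exons, a scale that depends on the annotated length (888 bases for Timp1, 3896 for Timp2, 8144 for Timp3 and 5894 for Timp4). Timp1 held place 8 of the 10 members in EV, EV_DOX and DUX, with means of 1.78, 1.19 and 1.32 CPM per kilobase. In DUX_DOX it held the highest mean, 30.8 CPM per kilobase (SD 7.31, n = 3), next to Timp2 with 30.3 (SD 1.66). Those neighbours did not differ beyond their spread, since Timp1 ran from 22.9 to 37.3 and Timp2 from 28.4 to 31.5.

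Timp1 made up 41.1%, 33.1% and 44.0% of the TIMP reads per kilobase in DUX_DOX 1 to 3. Its share was 1.54% to 4.07% in the other 9 libraries, where Timp2 was the most abundant TIMP with 50.4% to 67.1%. Summed over the family, TIMP reads came to 69.1 to 84.7 CPM per kilobase in DUX_DOX, against 42.7 to 65.4 in EV_DOX, 44.5 to 55.2 in DUX and 45.9 to 74.4 in EV. The sum of DUX_DOX thus overlapped with that of EV, through EV 3, and not with those of EV_DOX and DUX.

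**Figure D2:**
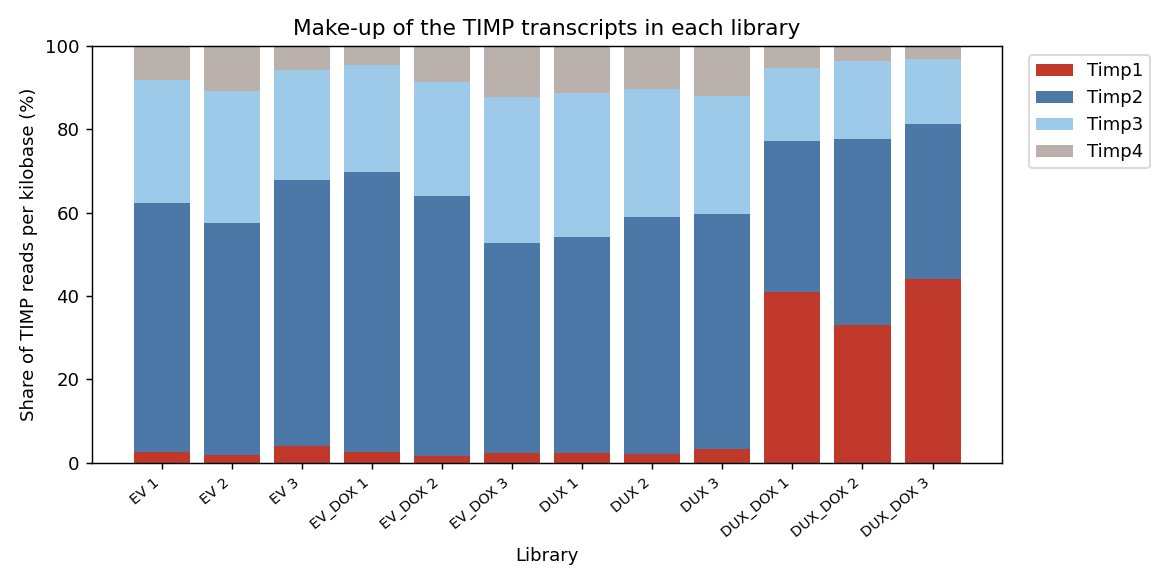
Stacked bars give, for each of the 12 libraries on the horizontal axis, the share of Timp1 to Timp4 among TIMP reads per kilobase, in percent. Timp1 takes 33.1% to 44.0% in the DUX_DOX libraries and at most 4.07% elsewhere.

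Mmp2 and Mmp14, the gelatinase and its membrane-bound activator, were not called in any comparison of the main edgeR fit. Mmp2 (chromosome 8, 92827291 to 92853420) had 44.3, 58.4 and 61.1 CPM in DUX_DOX, 95.7, 81.3 and 43.4 in EV_DOX, 87.2, 50.6 and 96.4 in EV, and 52.5, 58.6 and 78.1 in DUX. Libraries of 1 group differed more than the group means did. Mmp2 had a log2 fold change of -0.43 (95% interval -1.0 to 0.15, adjusted p = 0.261) against EV_DOX. For Mmp14 (chromosome 14, 54431612 to 54445364) it was 0.27 (95% interval -0.29 to 0.83, adjusted p = 0.489), with 20.6 to 24.9 CPM in DUX_DOX and 10.5 to 25.8 CPM in EV_DOX. Both intervals include a change of the size seen for Adamts1, downwards for Mmp2 and upwards for Mmp14.

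Values of both enzymes and of Timp2 depended on single EV_DOX libraries. EV 3 and EV_DOX 1 were the highest 2 of the 12 libraries for Timp2, Timp3, Mmp2 and Mmp14 alike, and EV_DOX 3 was the lowest for Timp2, Mmp2 and Mmp14. EV 3 and EV_DOX 1 were also the highest 2 libraries for collagen and tendon genes. Col1a1, the main chain of type I collagen, had 1577 CPM in EV 3 and 1609 CPM in EV_DOX 1, against 211 CPM in EV_DOX 3, the lowest of the 12. The 10 tenocyte markers summed to 1090.1 CPM in EV 3 and 1002 CPM in EV_DOX 1, while EV_DOX 3 with 142 CPM lay above DUX 2 with 116 CPM. Without EV_DOX 1 the log2 fold changes were 0.09 for Timp2, -0.19 for Mmp2 and 0.55 for Mmp14. Without EV_DOX 3 they were -0.39, -0.70 and -0.02, and the Mmp2 value then passed the test (adjusted p = 0.0473, in a range from 0.0473 to 0.644). The part of tendon or connective tissue in these values was not tested, and in whole muscle fewer cells of a type and less RNA per cell cannot be told apart.

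**Figure D3:**
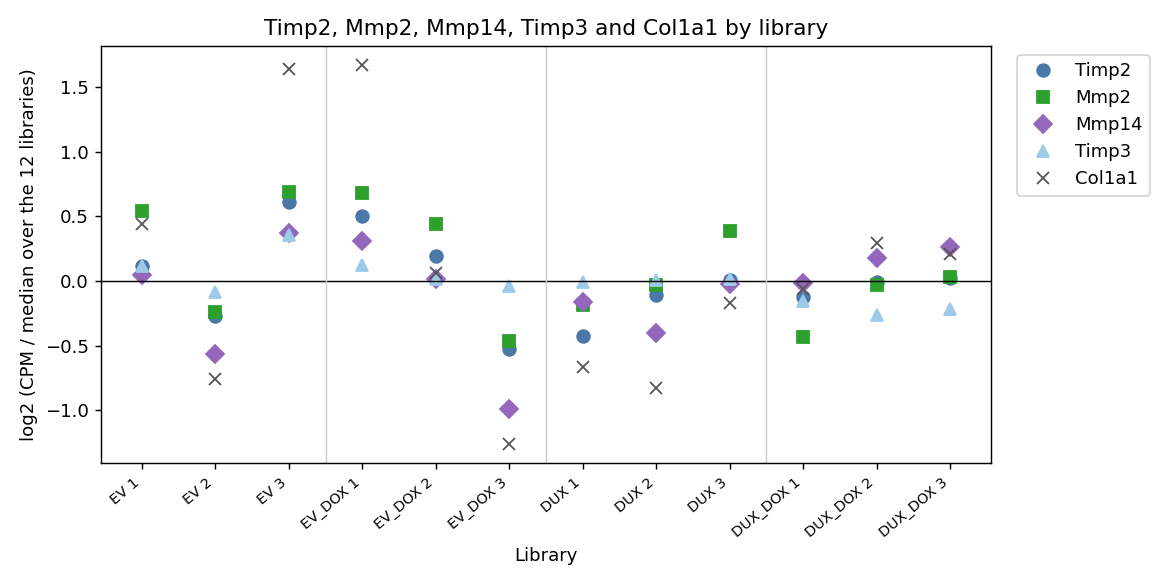
Points give Timp2, Mmp2, Mmp14, Timp3 and Col1a1 in each of the 12 libraries as log2 of CPM over the gene's own median. EV 3 and EV_DOX 1 stand high and EV_DOX 3 stands low for Timp2, Mmp2, Mmp14 and Col1a1, while the 3 DUX_DOX libraries lie close together for Timp2.

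Ratios within a library were steadier than the levels. Mmp2 reads per Timp2 read, both per kilobase, came to 0.586 to 0.769 in the 9 libraries outside DUX_DOX. In DUX_DOX 1 to 3 the ratio was 0.463, 0.561 and 0.575, lower than in each of the 9. Set against all 4 TIMPs, the Mmp2 ratio was 0.167 to 0.251 in DUX_DOX and 0.301 to 0.458 elsewhere, a separation to which the Timp1 reads contribute. Mmp14 per Timp2 was 0.122 to 0.133 in DUX_DOX and 0.0818 to 0.135 in the other 9, where DUX 1 was as high as the induced libraries. These ratios are descriptions and were not tested.

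Of the proteoglycan-cutting enzymes, Adamts4 and Adamts1 rose and Adamts5 did not. Adamts4 (chromosome 1, 171250421 to 171260637) had 3.28, 5.01 and 5.80 CPM in DUX_DOX, from 43, 70 and 75 counts. It had 1.53, 1.32 and 0.470 CPM in EV_DOX, 1.57, 1.36 and 1.53 CPM in EV, and 1.11, 0.923 and 1.27 CPM in DUX, so the induced libraries lay above all 9 others. The rise against EV_DOX was 2.07 on the log2 scale (SE 0.32, adjusted p = 3.26e-04), or 4.19-fold. Strand use in the counting is not given in the sources used here, so reads from a gene on the opposite strand cannot be told apart from those of Adamts4, and its counts are uncertain to that extent.

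Adamts1 (chromosome 16, 85793827 to 85803113) moved far less but with little spread. It had 49.3, 53.0 and 46.2 CPM in DUX_DOX, 34.0, 41.2 and 35.1 in EV_DOX, 42.6, 39.4 and 43.0 in EV, and 42.5, 35.1 and 39.4 in DUX. All 3 induced libraries exceeded the highest of the other 9, which was EV 3. Adamts1 rose by 0.43 (SE 0.10, adjusted p = 0.00518) against EV_DOX, or 1.35-fold.

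Adamts5 lies 53059 bases from Adamts1 on the same chromosome (85856173 to 85901828). It had 18.4, 14.4 and 16.8 CPM in DUX_DOX and 17.3, 20.4 and 14.01 in EV_DOX, with a log2 fold change of -0.06 (95% interval -0.37 to 0.25, adjusted p = 0.80). Per kilobase, Adamts1 made up 75.9% to 82.6% of the reads of the 3 enzymes in every library. The share of Adamts4 was 5.83% to 10.5% in DUX_DOX and 1.22% to 3.82% elsewhere, and that of Adamts5 was 10.8% to 14.6% in DUX_DOX and 16.2% to 21.8% elsewhere.

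Plaur (chromosome 7, 24462484 to 24475968), the urokinase receptor, was the member with the fewest counts. It had 3.05, 2.43 and 4.33 CPM in DUX_DOX, from 40, 34 and 56 counts. In EV_DOX it had 0.949, 2.01 and 0.861 CPM, in DUX 2.06, 1.31 and 1.12 CPM, and in EV 0.627, 0.882 and 1.07 CPM. The induced libraries lay above the other 9, of which DUX 1 came nearest. Plaur rose by 1.35 (SE 0.34, adjusted p = 0.0108) against EV_DOX, or 2.55-fold, and the call was lost without DUX_DOX 3 (1.10, adjusted p = 0.0594, in a range from 0.00349 to 0.0594).

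Marker sums of several cell types differed between DUX_DOX and the other 9 libraries. Over all genes 14.9% were called higher and 10.3% lower against EV_DOX. Macrophages are a known source of Plaur and Timp1 in injured tissue. Of 20 macrophage and monocyte markers, all measured and none at 0 counts, 17 rose and 0 fell against EV_DOX. They summed to 472 to 678 CPM in DUX_DOX and 217 to 366 CPM in the other 9 libraries. Among these 9, DUX with 314 to 366 CPM lay above EV with 217 to 298 CPM and EV_DOX with 242 to 294 CPM. The fibro-adipogenic markers, of cells that make much of the muscle's matrix, summed to 1088 to 1529 CPM in DUX_DOX and 919 to 1624 CPM elsewhere, with 1 of 12 higher and 0 lower. Muscle fibre markers summed to 148370.0 to 166546 CPM in DUX_DOX and 176038 to 197015 CPM elsewhere, and 3 of 12 fell. Smooth muscle and pericyte markers summed to 3638 to 4314 CPM in DUX_DOX and 2778 to 3235 CPM elsewhere, and satellite cell markers to 206 to 209.6 CPM and 166 to 198 CPM, so both sums lay above those of the other 9 libraries. Endothelial markers, with 659 to 667 CPM against 673 to 793 CPM, lay below them, and Schwann cell markers overlapped, with 113 to 147 CPM against 52.9 to 205 CPM. The satellite cell, smooth muscle, endothelial and Schwann cell lists had 2, 2, 1 and 0 genes higher, of 10, 10, 12 and 8 measured. They had 0, 0, 1 and 0 genes lower. Their median log2 fold changes against EV_DOX were 0.03, 0.06, -0.08 and 0.17 in that order, whereas a sum follows its most abundant genes. Of the tenocyte list 1 of 10 rose and 1 fell, and of 8 neutrophil markers the 1 measured rose. The part of any of these cells in the rise of Timp1, Adamts4 or Plaur was not tested.

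The second comparison asked what doxycycline chow did to muscle that carried the Dux vector, DUX_DOX against DUX. It shares the DUX_DOX libraries with the first comparison. Timp1, Adamts1, Adamts4 and Plaur rose and Timp4 fell, that is 4 of 10 members higher and 1 lower. Among all genes tested 16.5% were called higher and 13.1% lower, 29.6% in all. The members' median was 0.23 and that of all genes 0.012. The rises were 4.53 for Timp1 (SE 0.34, adjusted p = 3.71e-07), 2.08 for Adamts4 (SE 0.32, adjusted p = 2.93e-04), 1.12 for Plaur (SE 0.34, adjusted p = 0.0217) and 0.34 for Adamts1 (SE 0.10, adjusted p = 0.0157).

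The calls of Adamts1 and Plaur depended on single libraries. That of Adamts1 was lost without DUX 2 (0.27, adjusted p = 0.0776) or DUX_DOX 2 (0.28, adjusted p = 0.0739), in a range from 0.0118 to 0.0776. That of Plaur was lost without DUX 2 (adjusted p = 0.0764), DUX 3 (0.0857) or DUX_DOX 3 (0.87, adjusted p = 0.107), in a range from 0.00856 to 0.107.

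Adamts5 stood just beyond the threshold in this comparison. It had 24.8, 18.7 and 21.7 CPM in DUX, all above the 14.4 to 18.4 CPM of DUX_DOX. The log2 fold change was -0.39 (SE 0.14, adjusted p = 0.0501), and it passed in 11 of 20 alternatives, among them the DESeq2 Wald test (adjusted p = 0.0398), in a range from 0.0218 to 0.201. Mmp14 lay without overlap above DUX (0.33, 95% interval -0.23 to 0.90, adjusted p = 0.360), and Timp3 below it (-0.22, adjusted p = 0.109). In all 5 members lay without overlap above DUX and 3 below, where 26.0% and 22.6% of all genes did so.

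**Figure D4:**
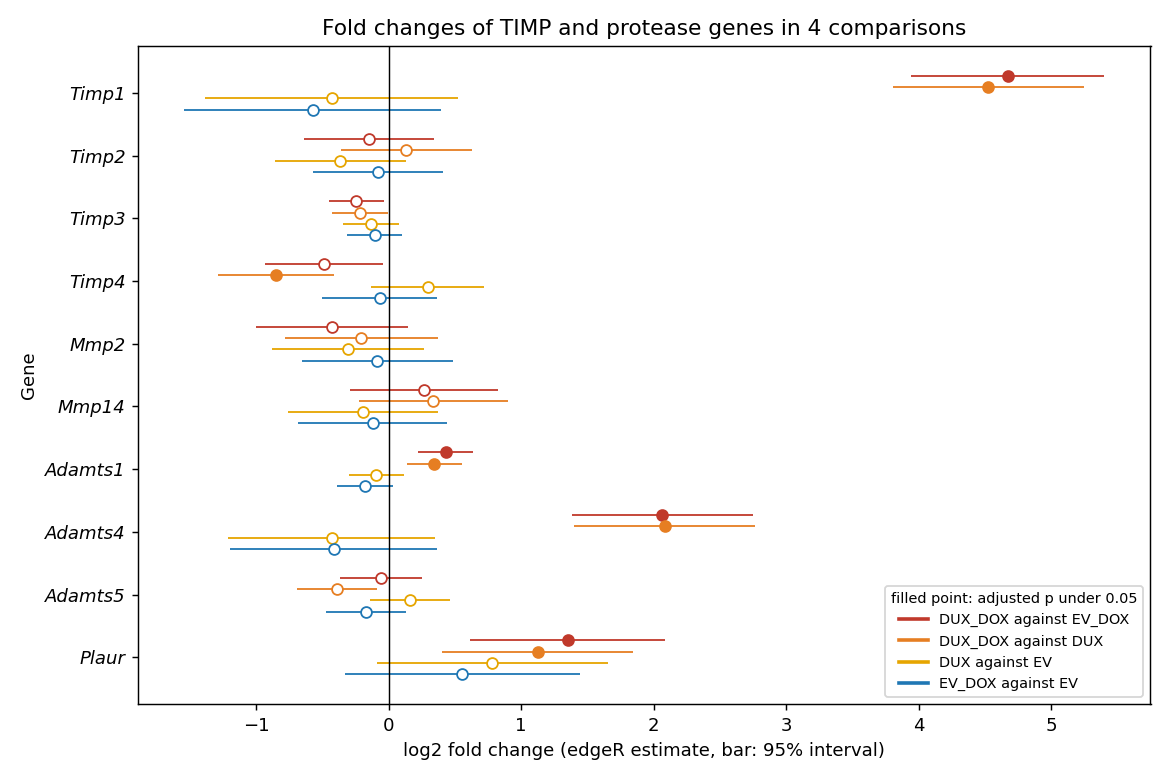
Points give the log2 fold change of each of the 10 genes on the horizontal axis with its 95% interval as a bar, in 4 comparisons by colour; filled points have an adjusted p below 0.05. Timp1 lies at 4.67 and 4.53 in the comparisons that hold DUX_DOX and has intervals across 0 in those that do not.

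Without induction the members did not pass the test. In DUX against EV, the Dux vector on normal chow, edgeR called 0 of 10 members and 0% of all genes. An unadjusted p below 0.05 was found for 0 members and for 2012 of the 12751 genes tested. DESeq2 and limma-voom called 0 members, and over all genes DESeq2 called 153 of 5335 and limma-voom 0 of 12751. DESeq2 gave no adjusted p for Timp1, Adamts4 and Plaur here. Timp1 stood at -0.43 (95% interval -1.38 to 0.52), and Plaur at 0.78 (95% interval -0.09 to 1.65, adjusted p = 0.359) with all 3 DUX libraries above EV. Timp4 also lay without overlap above EV (0.29, adjusted p = 0.474) and Adamts4 below it (-0.43, adjusted p = 0.578). Such separation was found in 11.3% of genes upwards and 11.6% downwards.

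In EV_DOX against EV, which asks what the chow did without Dux, edgeR called 0 of 10 members and 0.0392% of all genes. An unadjusted p below 0.05 was found for 0 members and for 999 of the 12751 genes tested. DESeq2 and limma-voom called 0 members too, and 12 and 0 of all genes. The groups overlapped for all 10 members, where 5.69% of all genes lay without overlap upwards and 6.45% downwards. The log2 values ran from -0.58 for Timp1 (95% interval -1.54 to 0.39) to 0.56 for Plaur (95% interval -0.33 to 1.44).

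Whether the Dux vector acted differently on the 2 chows was tested by the interaction of vector and chow. It was called for 3 of 10 members, all upwards, while 6.97% of all genes were called upwards and 3.43% downwards, 10.4% in all. The values were 5.10 for Timp1 (SE 0.58, adjusted p = 8.40e-05), 2.50 for Adamts4 (SE 0.49, adjusted p = 0.00534) and 0.52 for Adamts1 (SE 0.14, adjusted p = 0.0272). The Adamts1 call was lost when any of 6 single libraries was omitted, EV 1, EV 3, EV_DOX 3, DUX 2, DUX 3 or DUX_DOX 2, at adjusted p from 0.0559 to 0.0761. For Plaur the interaction was 0.57 (95% interval -0.59 to 1.73, adjusted p = 0.539), so that a difference of the Dux effect between the chows was not shown. For Timp4 it was -0.78 (adjusted p = 0.0941), and it passed without EV_DOX 1 (-0.99, adjusted p = 0.0140) or DUX_DOX 1 (-1.04, adjusted p = 0.0254), in a range from 0.0140 to 0.214.

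Other genes of the same system were counted by list in DUX_DOX against EV_DOX, where 14.9% of all genes were called higher and 10.3% lower. The share of measured genes called higher was 11.5% in the ADAM and ADAMTS list, below that of all genes. It was 20.8% in the matrix substrates, 22.2% in the other metalloproteinases, 26.7% in the inhibitors and activators, 38.5% in the plasminogen system and 61.5% in the upstream signals of Timp1. The lists held 9 to 26 measured genes, so 1 gene moves such a share by up to 11.1% in the list of 9, and by 7.7% in a list of 13. Among the other matrix metalloproteinases 2 of 9 measured genes rose and 1 fell, with a median log2 fold change of -0.03. Mmp17, a membrane-anchored enzyme, went from 0.365 to 1.01 CPM in EV_DOX to 5.18 to 7.29 CPM in DUX_DOX (3.26, SE 0.32). Mmp19, a secreted enzyme, went from 1.41 to 3.58 CPM to 10.6 to 15.1 CPM (2.29, SE 0.26), and Mmp15, a membrane-type enzyme, fell by 0.57 (SE 0.14). In the ADAM and ADAMTS list 3 of 26 measured genes rose and 0 fell, with a median of -0.17. They were Adam12, known from regenerating muscle fibres (2.46, SE 0.31), Adam8, of myeloid cells (1.72, SE 0.27), and Adam15 (0.57, SE 0.12). None of the measured ADAMTS and ADAMTS-like genes of this list was among them, and this list had 3 higher and 2 lower genes with upper-quartile factors or without EV_DOX 3.

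**Figure D5:**
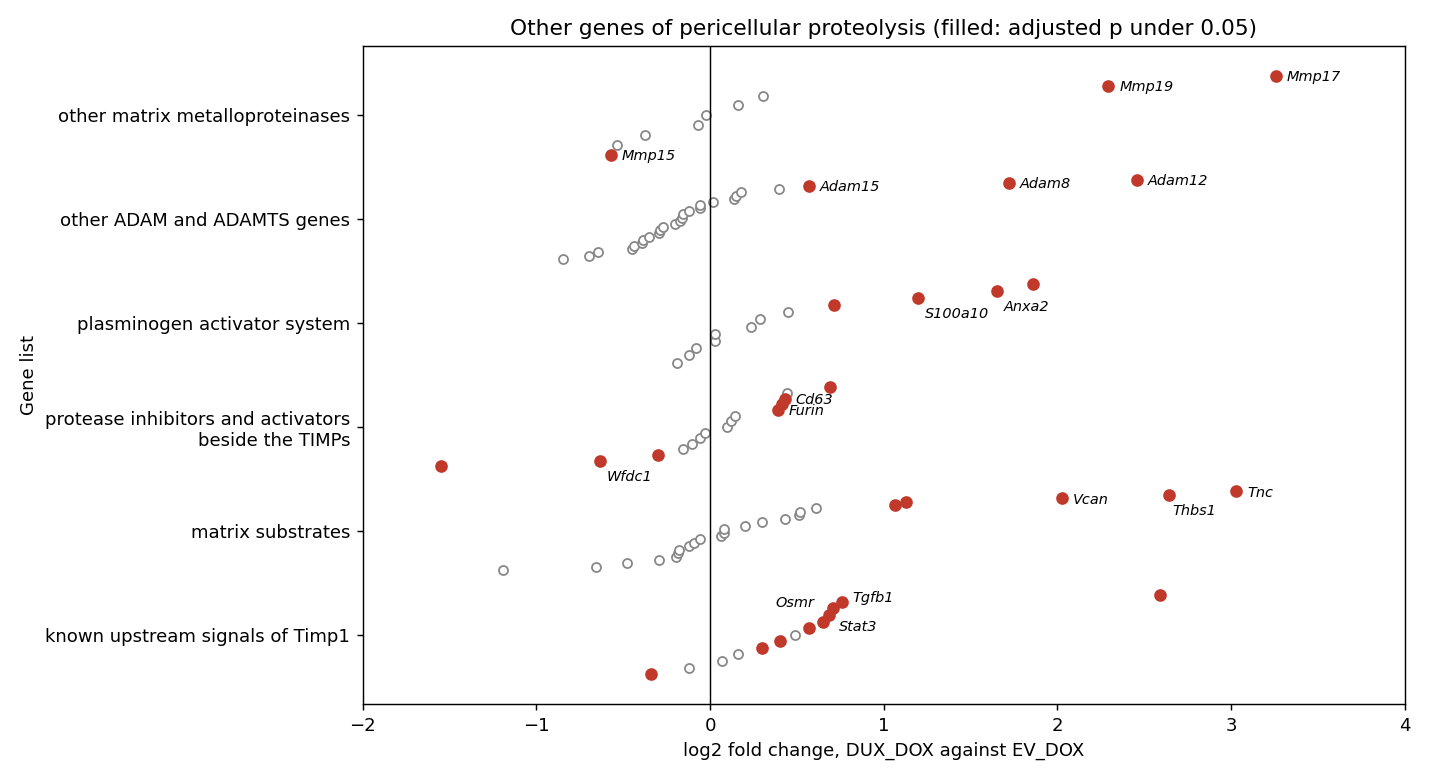
Each point is a measured gene of 6 lists (1 gene of the plasminogen system is not shown), with its log2 fold change in DUX_DOX against EV_DOX on the horizontal axis; filled points have an adjusted p below 0.05 and the named genes carry labels. Of the genes shown Mmp17 lies farthest to the right at 3.26, and the genes of the ADAM and ADAMTS list have a median of -0.17.

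The plasminogen activator system, in which Plaur works, had 5 of 13 measured genes higher and 0 lower, with a median of 0.29. Anxa2 and S100a10, which form a plasminogen receptor, rose by 1.65 (SE 0.17) and 1.20 (SE 0.12). Plau, which encodes urokinase, the ligand of Plaur, stood at 0.23 (SE 0.20, adjusted p = 0.430) and was named outside the rule after its value was seen.

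Of the other inhibitors and activators 4 of 15 measured genes rose and 3 fell, with a median of 0.10. They included Cd63, a surface partner of Timp1 (0.43, SE 0.09), Furin, the convertase that activates Mmp14 (0.39, SE 0.09), and Wfdc1, a small secreted protein (-0.64, SE 0.10). This count dropped to 2 higher and 1 lower without DUX_DOX 2, and to 2 and 2 without EV_DOX 3 or DUX_DOX 3.

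Among the matrix substrates 5 of 24 measured genes rose and 0 fell, with a median of 0.08. Vcan, which encodes versican, a substrate of Adamts1, Adamts4 and Adamts5, went from 2.50 to 7.13 CPM to 18.6 to 27.4 CPM (2.03, SE 0.29, adjusted p = 1.78e-04). Thbs1 and Tnc, glycoproteins of injured matrix, rose by 2.64 (SE 0.51) and 3.03 (SE 0.68). The values were 3.73 and 4.81 without EV_DOX 1, and 2.25 and 2.54 without EV_DOX 3. Tnc stands in the tenocyte list too.

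Among known upstream signals of Timp1 8 of 13 measured genes rose and 1 fell, with a median of 0.49. Stat3, the transcription factor below the receptors of the interleukin-6 family, rose by 0.68 (SE 0.08, adjusted p = 4.52e-05), Tgfb1 by 0.76 (SE 0.13) and Osmr, the oncostatin M receptor, by 0.71 (SE 0.15). The count was 4 higher and 1 lower without EV_DOX 3. In DUX_DOX against DUX, which shares the DUX_DOX libraries, 16.5% of all genes were called higher and 13.1% lower. There the other metalloproteinases had 2 genes higher and 1 lower of 9 measured, the ADAM and ADAMTS list 3 and 0 of 26, and the plasminogen system 6 and 1 of 13. The inhibitors and activators had 4 and 1 of 15, the substrates 6 and 0 of 24, and the upstream signals 7 and 1 of 13.

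Across the 12 libraries, likeness was measured as the root mean square difference between standardised log2 CPM, where a lower value is more alike. All genes share the libraries and their depth in this measure, and a high level in DUX_DOX alone makes profiles alike. The 3 genes outside the set closest to Timp1 were Ext1, a heparan sulfate polymerase (0.14), Tbc1d20 (0.15) and S100a10 (0.17), against a median of 1.37 over the 9045 candidate genes. Those closest to Mmp2 were Itih5 (0.27), C1qtnf1 (0.30) and Prelp (0.32), of which Prelp encodes a matrix proteoglycan. Those closest to Timp4 were Shisa2 (0.28), Prdx3 (0.33) and Isca1 (0.33), and those closest to Plaur were Hnrnpab (0.23), Zfp385a (0.33) and Txndc5 (0.33). Within the set, Timp1 and Adamts4 were each other's nearest (0.42), as were Timp2 and Mmp2 (0.46).

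Timp1, Timp3 and Timp4 each lie inside a synapsin gene on the opposite strand, namely Syn1, Syn3 and Syn2. Syn2 had 7 to 22 counts per library and shares 90 annotated exon bases with Timp4, which had 204 to 528 counts, and Syn1 and Syn3 are not analysed here.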

How the data were processed

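The values are raw read counts per gene, which the authors deposited as 1 table for the 12 libraries. Per the submitters' processing notes the tools were featureCounts, STAR and bcl2fastq 2.17.1.14, and the build was GRCm38. For the annotation, the strand setting and other versions, a value was not given in the sources used here. Over the 12 libraries, the lowest mean count of any gene is 10.0, and no gene below it was tested. Columns were mapped by name, and libraries within each group differed beyond sampling noise (chi-square per degree of freedom 4.81 to 25.5). Coordinates and exon lengths came from GENCODE release M21 on GRCm38.

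Tests were edgeR 4.0.16 quasi-likelihood F tests (two-sided, R 4.3.3) with 1 mean per group over all 12 libraries. TMM factors ran from 0.916 to 1.12, filterByExpr left 12751 genes, and p-values were adjusted by Benjamini-Hochberg over all genes. Log2 fold changes used a prior count of 0.125. DESeq2 1.42.0, limma-voom (limma 3.58.1), other scaling and filters, a replicate block and leaving out each library were alternatives. On simulated counts for DUX_DOX against EV_DOX in 12751 genes, the share of changed genes recovered was 46.2% at 1.5-fold, 90.0% at 2-fold and 100% at 3-fold. The simulation changed 200 genes, where 3224 were called in the data, and gave each gene the spread typical of its level rather than its own. These shares therefore do not say how likely a call was for a single member.

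The 10 members and the 16 lists were chosen with earlier results of these data known. Beside the members, the text names the 3 genes with the smallest p of each pathway list among those called in DUX_DOX against EV_DOX, and the 3 genes most like Timp1, Timp4, Mmp2 and Plaur (log2 CPM with a prior count of 2, at least 5 CPM on average, no predicted or unnamed genes). Of the genes this rule gives, 1 is not reported here.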

Additional observations from a re-analysis of the deposited data

Results flagged for a closer look

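For 3 genes the effect of the Dux vector differed between doxycycline and normal chow by the interaction term of the edgeR fit. The difference was 5.10 on the log2 scale for Timp1 (adjusted p = 8.40e-05), 2.50 for Adamts4 (adjusted p = 0.00534) and 0.52 for Adamts1 (adjusted p = 0.0272). All 3 DUX_DOX libraries stood above the other 9 for each of these genes, a separation that was not counted over all genes. The Adamts1 value no longer passed when EV 1, EV 3, EV_DOX 3, DUX 2, DUX 3 or DUX_DOX 2 was omitted (adjusted p from 0.0559 to 0.0761), that is in 6 of 12 such fits.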

How the results depend on the processing

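The number of members called in DUX_DOX against EV_DOX was 4, and 3 to 5 when each library in turn was omitted. In DUX_DOX against DUX it was 5, and 4 to 6 without 1 library. When only these groups were fitted it was 8, with Mmp14, Timp3 and Adamts5 called beside the 5. Calls over all genes were also more in that fit, 4502 of 12675 against 3772 of 12751 in the main fit, and the cause was not tested. The interaction count was 3, and 2 to 4 without 1 library, and in DUX against EV and EV_DOX against EV 0 members were called in every alternative. Over all genes, 3224 were called in DUX_DOX against EV_DOX and 2109 without DUX_DOX 3, while the interaction had 1326 calls, 2148 without EV_DOX 1, and 813, 841, 851, 861, 862 and 881 without EV 3, DUX_DOX 2, DUX 3, EV_DOX 3, DUX 1 and DUX 2. For EV_DOX against EV all genes called were 5, with 0 to 12 in the alternatives, and for DUX against EV 0, with 153 in DESeq2 and 118 without EV 2. Over all results for single genes, 1315 alternative values kept their side of the threshold, 12 lost the call, 20 gained it and 0 changed sign with a call. The alternatives for the pathway lists and their genes were added after seeing the data.

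The block by replicate number gave 4 members for DUX_DOX against EV_DOX, 5 for DUX_DOX against DUX and 3 for the interaction, and changed no call of a member. The labels do not say that a number marks an animal. Deviations of same-numbered libraries from their group means correlated from -0.42 to 0.20 over 18 pairs, and 1 of the 3 DUX_DOX libraries correlated best with its own number in EV_DOX. Depth limits Timp1, Adamts4 and Plaur outside DUX_DOX, where 9 libraries held 149, 144 and 141 counts in all.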
